A study of Mus musculus with 6 samples.

Results

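Immunity-related GTPases and guanylate-binding proteins are interferon-induced GTPases of mouse cells. They were followed here by the symbols Irgm1, Irgm2, Igtp, Iigp1, Tgtp1, Tgtp2, Gbp1, Gbp2 and Gbp3, which make 9 of the 20325 genes listed in each library. Tgtp1 and Tgtp2 were summed because they share most of their transcript sequence, so 8 values were followed per library. The libraries came from 2 partially reprogrammed (pre-iPSC) mouse lines, pre3 and pre2-2, made from embryonic fibroblasts of the OG2 mouse, whose GFP transgene is under the Pou5f1 promoter. The labelled strain background is mixed, from 129SVJ, C57B6 and CBA. At passage 10 each line was transfected with siTet1, an siRNA against the 5-methylcytosine dioxygenase Tet1, or with a control siRNA, or left untransfected. All groups, untransfected cells included, received LIF and vitamin C (50 µg/ml) in embryonic stem cell medium. Each line gave 1 library per treatment, so every treatment had n = 2 libraries, 1 from each line, and every line n = 3.

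The labels leave several points unsettled. In the series description, vitamin C was added at 16 h and RNA taken after a further 32 h. In the sample descriptions, RNA was taken 48 h after transfection, with vitamin C present for 36 h. A sample characteristic names a Tet siRNA without the number. The source name calls the cells fibroblasts. Nothing says whether libraries of a line came from separate cultures, so p-values measure the spread between these libraries, which may be technical.

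Both families bind and hydrolyse GTP and act on membranes that enclose intracellular pathogens. In mice, interferon-gamma signals through its receptor, with the kinases Jak1 and Jak2, and induces the factor Irf1, which can act at promoters of these GTPases. Type I interferon signals through factors that include Stat2 and Irf9, parts of the complex that binds the interferon-stimulated response element. Irgm1, Irgm2 and Igtp (also called Irgm3) are regulators that keep the effector GTPases Iigp1 (Irga6), Tgtp1 and Tgtp2 (Irgb6) off the cell's own membranes. Guanylate-binding proteins gather on vacuoles and bacteria and help to open them.

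Promoter sequence was read for the members. A RefSeq promoter entry was used for 8 of the 9 genes, all but Iigp1. Entries were of GRCm38.p6, a later build than the mm9 of the deposited data, and ran from 250 bases before to 50 after the start. Each of these 8 had, on either strand, TTTCNNTTTC, the core of the interferon-stimulated response element, which occurs in 3.44% of all 32851 promoter entries of that length. Irgm2, Igtp, Tgtp1 and Tgtp2 also had TTCNNNGAA, the core letters of the gamma-activated site, just before it; 8.30% of all entries had TTCNNNGAA and 0.454% had both. Gbp3 had a second start whose entry held no TTTCNNTTTC. A match describes letters and is not a measured binding site.

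Windows of up to 25 bases on each side of the matches are shown for 7 of the genes, 5′ to 3′ on the gene's strand. Those of Irgm1 and Igtp end at the start, so fewer bases follow their matches. The matched letters are in capitals (TTTCNNTTTC reads GAAANNGAAA on the other strand). They are shown for the genes that passed the test in a treatment comparison and have an entry, and for Igtp, whose window is set beside that of Irgm2. Irgm1 lies at chr11:48871421-48871475 (minus strand), Irgm2 at chr11:58214877-58214947 (plus), Igtp at chr11:58199486-58199555 (plus), Tgtp1 at chr11:48992289-48992359 (minus), Tgtp2 at chr11:49064248-49064318 (minus), Gbp2 at chr3:142620579-142620638 (plus) and Gbp3 at chr3:142559974-142560039 (plus).
Irgm1: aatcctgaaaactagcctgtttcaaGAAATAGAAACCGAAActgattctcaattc
Irgm2: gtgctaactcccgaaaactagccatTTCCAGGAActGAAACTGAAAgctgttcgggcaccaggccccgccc
Igtp: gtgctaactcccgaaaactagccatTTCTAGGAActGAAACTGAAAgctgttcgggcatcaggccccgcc
Tgtp1: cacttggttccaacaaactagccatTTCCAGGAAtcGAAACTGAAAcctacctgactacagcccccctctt
Tgtp2: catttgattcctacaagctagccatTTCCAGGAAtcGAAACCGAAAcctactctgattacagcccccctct
Gbp2: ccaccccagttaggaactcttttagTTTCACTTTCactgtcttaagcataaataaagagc
Gbp3: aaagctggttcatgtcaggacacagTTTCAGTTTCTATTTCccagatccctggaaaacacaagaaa
Compared position by position without gaps, the Irgm2 and Igtp windows were identical at 68 of 70 bases, and the Tgtp1 and Tgtp2 windows at 53 of 71. Tgtp2 has an extra base after the match, which puts the later bases out of step, so 53 understates how alike these windows are. Irgm1 and Gbp3 each held 2 overlapping matches. The regulator and effector genes on chromosome 11 had the GAAANNGAAA reading, and Gbp2 and Gbp3 on chromosome 3 the TTTCNNTTTC reading.

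Transcript sequence is also shared, which limits how reads can be assigned. Of the 50-base words of Tgtp2 transcripts, 89.8% also occurred in Tgtp1, and of those of Tgtp1 79.4% occurred in Tgtp2. Igtp shared 11.8% of its words with Irgm2, and Irgm2 6.79% with Igtp. The other members shared at most 3.83%, which was Gbp3 with Gbp7. RSEM divides such reads by estimation, so the split between Tgtp1 and Tgtp2 is uncertain.

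Libraries held 1868640 to 2582803 expected counts, and 3 counts, the floor used here, corresponded to 1.16 to 1.59 CPM, counts relative to the library total with TMM scaling. Tet1, the targeted gene, was at 158 and 153 CPM in the siTet1 libraries of pre3 and pre2-2, against 249 and 245 with control siRNA and 204 and 249 untransfected. It was lower than with control siRNA, at a log2 fold change of -0.67 (SE 0.13, edgeR adjusted p 0.00431), and than in untransfected cells, at -0.54 (SE 0.13, adjusted p 0.00953). Against the labelled fibroblast source, Pou5f1 was at 5767 to 6589 CPM in pre3 and 1037 to 1203 in pre2-2, Nanog was at 0 to 3.53 CPM, and all 10 fibroblast markers had counts in every library, summing to 4881 to 11382 CPM. Of 14 macrophage markers 12 were listed and 3 passed the filter, and their summed CPM of 173 to 329 was mostly Laptm5; Ptprc was at 0 to 2.80 CPM. Lymphocyte and natural killer markers summed to 2.33 to 5.54 CPM, with 8 of 13 without a count in any library. In bulk RNA, fewer cells that express a gene and less RNA per cell cannot be told apart.

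The GTPases were far lower in pre3 than in pre2-2. Summed over the 8 values, they stood at 12.7 CPM with siTet1, 32.4 with control siRNA and 6.64 untransfected in pre3, against 82.1, 378 and 206 CPM in pre2-2. Seen per transcript, Irgm1 was the most abundant in every library and made up 43.4 to 62.5% of the summed TPM, a level per transcript length. In pre2-2 with control siRNA it stood at 187 TPM, followed by the Tgtp sum at 42.8, Igtp at 26.1, Gbp2 at 20.8, Irgm2 at 20.6, Gbp3 at 16.8, Iigp1 at 8.99 and Gbp1 at 4.90 TPM. Igtp, Gbp2, Irgm2 and Gbp3 kept this order in the 3 pre2-2 libraries, although Igtp and Gbp2 were nearly equal untransfected (22.8 and 22.7 TPM). With siTet1 in pre2-2, Igtp (7.21 TPM) stood above the Tgtp sum (6.71), and Iigp1 (0.338) was lowest.

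**Figure D1:**
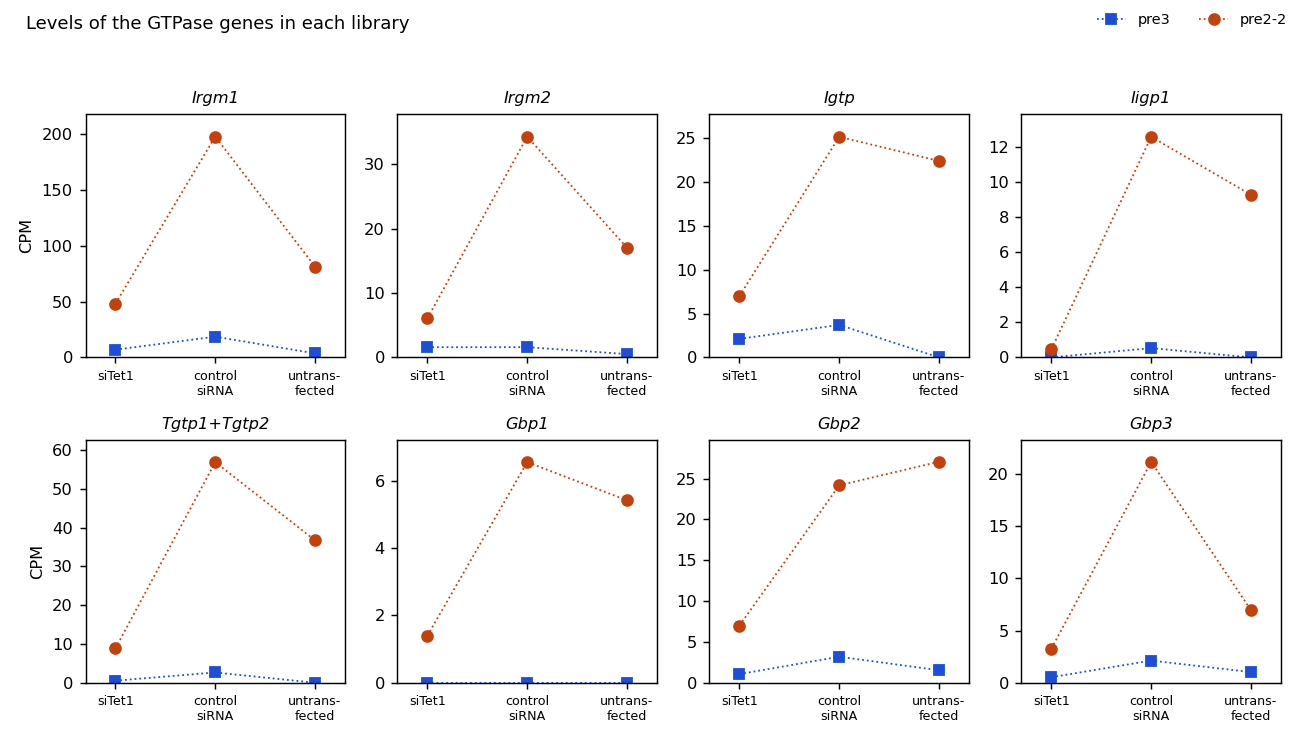
CPM (TMM-scaled, linear axis from 0) of the 8 values in the 6 libraries, siTet1, control siRNA and untransfected from left to right, 1 point a library and dotted lines joining the libraries of a line. In pre2-2 each siTet1 point lies below its control siRNA and untransfected points. With control siRNA and untransfected, pre3 points lie far below the pre2-2 points of the same treatment, with Gbp1 at 0 in every pre3 library. With siTet1 the lines lie closer together for some genes, such as Iigp1 (0 CPM in pre3 and 0.466 in pre2-2).

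Between the lines, pre3 against pre2-2, all 8 values were called lower, against 15.8% of the 11048 genes tested. All but Irgm1 reached the filter's level of 5.04 CPM only in pre2-2 libraries, so the number called carries no weight of its own. Irgm1 had a log2 fold change of -3.50 (SE 0.20, edgeR adjusted p 1.17e-12) and the Tgtp sum of -4.96 (SE 0.40, adjusted p 3.94e-10). Gbp1 had no count in pre3, which sets it at least 8.44-fold lower than in pre2-2 if 3 counts over the 3 libraries are taken as the floor, and Iigp1 had 1 count in pre3, a 42.7-fold lower summed count (exact 95% counting interval 7.32 to 1719). The other 4 had log2 fold changes of -3.01 to -3.87. Called lower in pre3 as well were 16 of 22 type I interferon targets and 7 of 13 other interferon-gamma targets. So were 4 of 6 other GTPases listed, Gvin1 among them, 9 of 10 fibroblast markers and 4 of 4 endothelial markers. The part of all these genes in the difference was not tested.

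With siTet1 against control siRNA, most of the GTPases fell. Of the 8 values, 6 were called lower and 0 higher (edgeR adjusted p under 0.05), where 0.434% of all genes tested were called lower and 1.15% higher, and all 8 had an unadjusted p under 0.05. The median log2 fold change over the 8 was -2.15, against 0.004 over all genes. Iigp1, Gbp1 and Gbp3 reached the filter's level in no siTet1 library, so they carry no weight of their own in these counts or in the median. Called were the regulators Irgm1 and Irgm2, both effector values, Gbp2 and Gbp3.

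Irgm1 was at 6.88 and 48.0 CPM in siTet1 cells of pre3 and pre2-2, against 18.6 and 197 CPM in control siRNA cells and 3.57 and 81.2 CPM in untransfected cells. Its siTet1 value was below control siRNA in both lines, and below untransfected only in pre2-2. Against control siRNA its log2 fold change was -1.96 (SE 0.22, adjusted p 6.32e-06). Irgm2, its paralogous regulator, was at 1.59 and 6.06 CPM with siTet1, against 1.59 and 34.3 with control siRNA and 0.511 and 17.0 untransfected, so only pre2-2 showed the difference. Its log2 fold change was -2.16 (SE 0.47, adjusted p 0.0139). Igtp, the third regulator, was at 2.12 and 6.99 CPM with siTet1, against 3.71 and 25.2 with control siRNA and 0 and 22.4 untransfected. Its log2 fold change of -1.66 (SE 0.52, adjusted p 0.129) did not pass.

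The effectors come next. Tgtp1 and Tgtp2 summed were at 0.530 and 8.86 CPM in siTet1 cells of pre3 and pre2-2, against 2.65 and 56.9 with control siRNA and 0 and 36.7 untransfected. In pre2-2 the siTet1 library was the lowest of the 3, at 0.156 of control siRNA (exact 95% counting interval 0.0903 to 0.254). The log2 fold change was -2.67 (SE 0.39, adjusted p 0.000263). In pre2-2, RSEM gave Tgtp1 12.8 of the 19.0 counts with siTet1, 100.2 of 113 with control siRNA and all 94.97 untransfected, a split that is uncertain. Iigp1 had 0 and 1 counts with siTet1, against 1 and 24.8 with control siRNA and 0 and 24 untransfected. Summed over the lines, that was 27.1-fold lower than with control siRNA (exact 95% counting interval 4.45 to 1111; edgeR adjusted p 0.0161).

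Among the guanylate-binding proteins, Gbp2 was at 1.06 and 6.99 CPM in siTet1 cells of pre3 and pre2-2, against 3.18 and 24.2 with control siRNA and 1.53 and 27.1 untransfected. Gbp2 thus was lowest with siTet1 in both lines, but in pre3 at 2 counts, against 6 with control siRNA and 3 untransfected. The exact 95% counting intervals of these pre3 ratios include no change (0.0328 to 1.86 and 0.0577 to 6.04). The Gbp2 log2 fold change against control siRNA was -1.77 (SE 0.44, edgeR adjusted p 0.0401). Gbp3 was at 0.530 and 3.26 CPM with siTet1, against 2.12 and 21.2 with control siRNA and 1.02 and 6.96 untransfected, a log2 fold change of -2.56 (SE 0.57, adjusted p 0.0171). Gbp1 was at 0 and 1.40 CPM with siTet1, against 0 and 6.55 with control siRNA and 0 and 5.42 untransfected. Its 3.16 summed counts with siTet1 were 4.52-fold fewer than the 13 with control siRNA (exact 95% counting interval 1.24 to 24.7), and it did not pass (adjusted p 0.453).

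**Figure D2:**
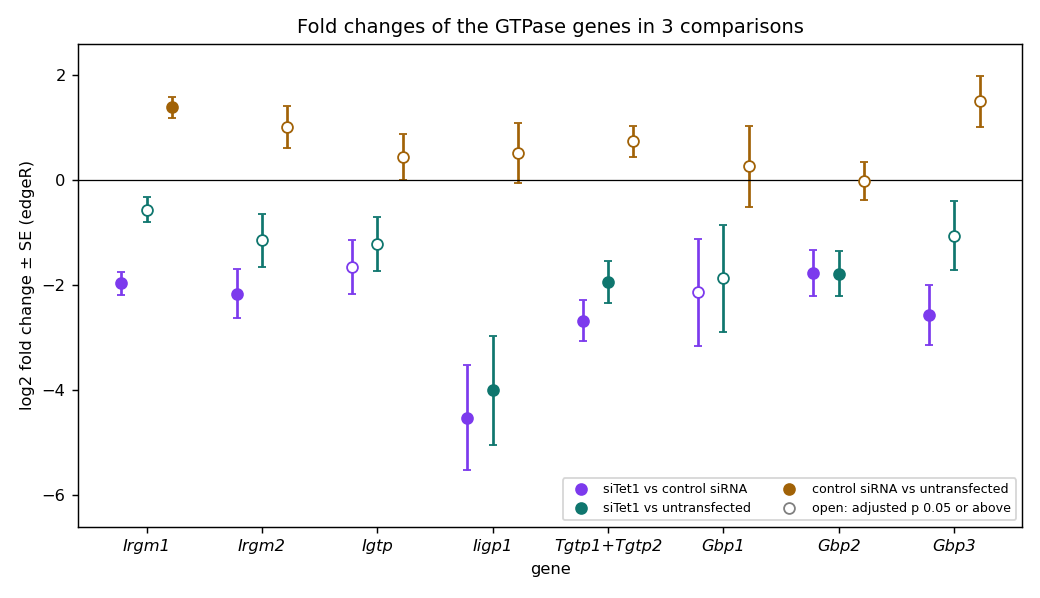
Log2 fold changes with standard errors (edgeR) of the 8 values in 3 comparisons; filled symbols have an adjusted p under 0.05. Against control siRNA all 8 symbols lie below 0 and 6 are filled; against untransfected all lie below 0 and 3 are filled; of control siRNA against untransfected 1 is filled, Irgm1.

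The calls rested on pre2-2. Without the pre2-2 siTet1 library no value was called lower and Irgm2 was at 0.16; without the pre2-2 control siRNA library 1 was, Irgm1. With all 6 libraries, DESeq2 called 1 lower, Irgm1 (6 at an unadjusted p under 0.05), and edgeR without the line in the model called 0 (0 unadjusted). In pre3, 6 values were below control siRNA, Irgm2 was equal at 3 rounded counts in each library and Gbp1 had no count, and only 3 and 6 values stood above 3 counts in its siTet1 and control siRNA libraries.

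With siTet1 against untransfected cells, fewer values differed: 3 were called lower and 0 higher, where 1.63% of all genes were called lower and 4.92% higher, and 6 had an unadjusted p under 0.05. The median was -1.50, against 0.01 over all genes. Iigp1, Gbp1 and Gbp3, below the filter's level in both siTet1 libraries, again carry no weight of their own in these counts or in the median. Called were the Tgtp sum, at -1.93 (SE 0.40, adjusted p 0.00338), Gbp2, at -1.78 (SE 0.43, adjusted p 0.0114), and Iigp1, 21.3-fold lower in summed counts (exact 95% counting interval 3.47 to 876; adjusted p 0.0196). Irgm1 was at -0.56 (SE 0.23, adjusted p 0.175), Irgm2 at -1.14 (SE 0.50, adjusted p 0.201), Igtp at -1.21 (SE 0.52, adjusted p 0.186) and Gbp3 at -1.05 (SE 0.66, adjusted p 0.409). Gbp1 had 3.16 counts with siTet1 and 13.5 untransfected, a 4.14-fold lower sum (interval 1.16 to 22.5; adjusted p 0.326).

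Of 10 fibroblast markers, 7 were called higher with siTet1 than untransfected and 0 lower, and they summed to 5780 and 11382 CPM with siTet1 in pre3 and pre2-2, against 4965 and 5278 CPM untransfected; their part in the GTPase values was not tested.

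The lines parted in this comparison. In pre3, 2 values were lower with siTet1 than untransfected, on 2 against 3 counts for Gbp2 and 1 against 1.73 for Gbp3. Another 4 were higher, and the pre3 sum of 12.7 CPM was 1.91 times the 6.64 CPM of untransfected cells. In pre2-2 all 8 values were lower, and their sum of 82.1 CPM was 0.398 of the 206 CPM of untransfected cells. Irgm1 was at 1.93 times the untransfected level in pre3 (exact 95% counting interval 0.714 to 5.70, which includes no change) and at 0.591 of it in pre2-2 (0.462 to 0.752). The test of whether the siTet1 difference from the mean of the other 2 treatments varied between lines called none of the 8 (edgeR, adjusted p 1.00 for each; 0 with an unadjusted p under 0.05), where it called 0.0996% of all genes. Without the pre2-2 siTet1 or the pre2-2 untransfected library no value was called lower than untransfected; without the pre3 untransfected library 6 were, with Irgm1 at -0.72 (adjusted p 0.00333). With all 6 libraries, DESeq2 called 0 (2 unadjusted), as did edgeR without the line (0 unadjusted).

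**Figure D3:**
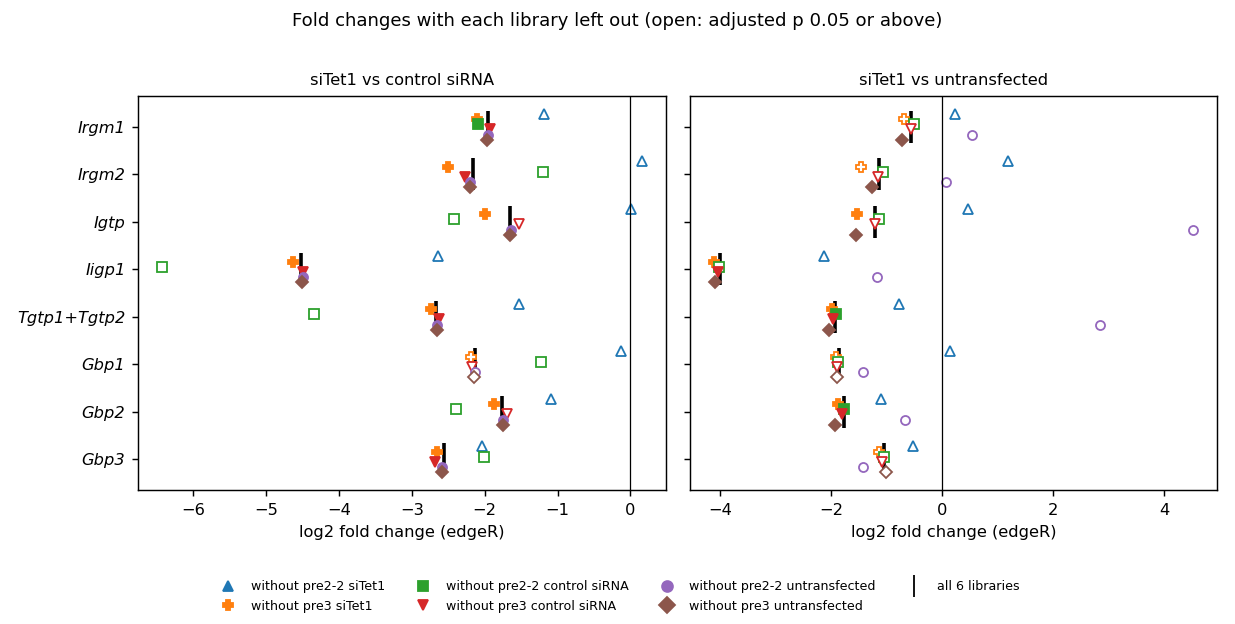
Log2 fold changes (edgeR) of the 8 values for siTet1 against control siRNA and against untransfected with each of the 6 libraries left out in turn; open symbols have an adjusted p of 0.05 or above. Some symbols lie above 0 when the pre2-2 siTet1 or the pre2-2 untransfected library is left out.

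Control siRNA differed from untransfected for Irgm1. Of the 8 values 1 was called higher and 0 lower, where 1.38% of all genes were called higher and 0.0996% lower; 4 had an unadjusted p under 0.05. Irgm1 was at a log2 fold change of 1.40 (SE 0.20, adjusted p 0.000115), and its control siRNA level was 5.20 times the untransfected one in pre3 (exact 95% counting interval 2.27 to 13.9) and 2.43 times in pre2-2 (2.05 to 2.89). Without the pre2-2 control siRNA library it was 1.58 (adjusted p 0.115). Gbp3 was at 1.51 (SE 0.49, adjusted p 0.167), Irgm2 at 1.02 (SE 0.39, adjusted p 0.336) and the Tgtp sum at 0.74 (SE 0.30, adjusted p 0.378). Gbp2 lay at -0.01 (SE 0.36, adjusted p 0.998). Of the fibroblast markers 4 of 10 were called higher with control siRNA than untransfected, which was likewise not tested as a part of the GTPase values. The 3 treatment comparisons share libraries. The test of whether both transfected groups differed from untransfected to another extent in pre3 than in pre2-2 called none of the 8 (edgeR; 3 with an unadjusted p under 0.05, lowest adjusted p 0.0568, Igtp), where it called 2.43% of all genes.

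Genes of the interferon pathway were counted beside them. Of 19 interferon ligand genes none passed the filter and 17 had no count in any library. Of 8 receptor and kinase genes tested, among them Ifngr1, Ifnar1, Jak1 and Jak2, none was called in any treatment comparison, and Ifngr1 was at 0.63 against control siRNA (SE 0.22, adjusted p 0.207). Among the factors, Stat2, Irf7 and Irf9 were called lower with siTet1 against control siRNA, and Irf7 was called higher than untransfected. Of 22 targets of type I interferon tested, 9 were called lower than with control siRNA and 8 higher than untransfected, while 19 were called higher in control siRNA than in untransfected cells.

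Irf9, a subunit of the type I complex, was at 21.2 and 28.9 CPM in siTet1 cells of pre3 and pre2-2, against 36.1 and 69.0 with control siRNA and 13.8 and 27.1 untransfected. Its log2 fold change was -1.05 against control siRNA (SE 0.21, adjusted p 0.00688) and 0.30 against untransfected (SE 0.24, adjusted p 0.542). Irf7, the type I amplifier, was at 3.71 and 16.8 CPM with siTet1, against 11.1 and 72.0 with control siRNA and 0 and 2.32 untransfected, with a log2 fold change of -1.99 (SE 0.29, adjusted p 0.000307) against control siRNA and of 3.06 (SE 0.53, adjusted p 0.000619) against untransfected. Isg15, a ubiquitin-like type I target, was at 5.30 and 20.5 CPM with siTet1, against 12.7 and 74.1 with control siRNA and 0 and 2.71 untransfected. Irf7 and Isg15 thus lay between the controls in both lines, whereas in pre2-2 the GTPases lay below both. That position was not particular to the GTPases, since some interferon pathway genes shared it. In pre2-2, Stat2 was at 20.05 CPM with siTet1, against 58.4 with control siRNA and 21.3 untransfected. The type I target Xaf1 was at 89.5 CPM there, against 206.6 and 100.2. Oas1b and Trim25, also type I targets, and Irf1 lay below both controls in pre2-2 as well.

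Irf1, the factor induced by interferon-gamma, was at 34.9 and 20.98 CPM with siTet1, against 24.9 and 31.7 with control siRNA and 21.96 and 74.3 untransfected, with the untransfected pre2-2 library highest. Its log2 fold change was -0.01 against control siRNA (adjusted p 0.994) and -0.75 against untransfected (SE 0.31, adjusted p 0.169). Lyz2, a macrophage marker, was also highest in untransfected pre2-2, where it stood at 23.98 CPM, beside 14.5 with siTet1 and 3.53 with control siRNA. The other 2 macrophage markers tested were not highest there: Laptm5 was at 178 CPM with siTet1, 160 with control siRNA and 163 untransfected in pre2-2, and Cd68 at 6.06, 4.53 and 6.19 CPM, below the 10.6 CPM of control siRNA in pre3. Among the listed macrophage markers that did not pass the filter, Csf1r, Itgam, Cd14, Lyz1, Fcer1g and Aif1 were highest in untransfected pre2-2. They stood there at 0.774 (Aif1) to 4.25 CPM (Cd14), on few counts. Ptprc, Emr1 and Tyrobp were highest in other libraries. The part of macrophages in the GTPase values was not tested. Of 13 interferon-gamma targets tested outside both families, none was called against control siRNA, and 3 were called higher than untransfected with siTet1, namely Tapbp, B2m and Nos2. Control siRNA against untransfected also called 3 higher, Tapbp, B2m and Vcam1. Nos2 had 45 counts with siTet1 and 9 untransfected in pre3, but 1 and 0 in pre2-2.

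**Figure D4:**
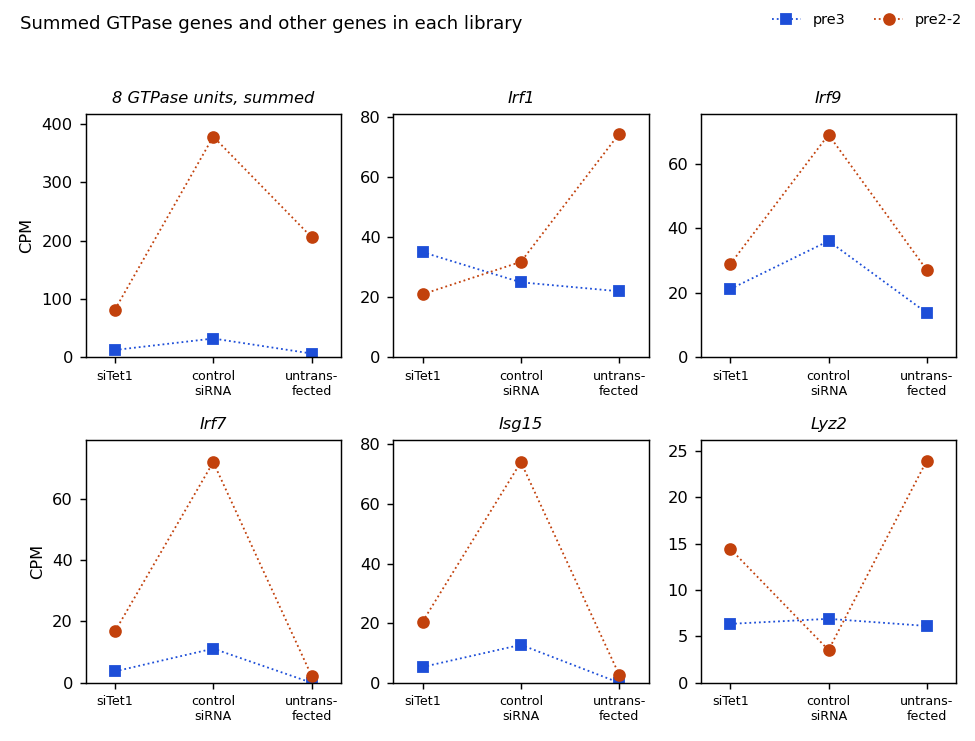
CPM (TMM-scaled, linear axis from 0) of the summed 8 values and of Irf1, Irf9, Irf7, Isg15 and Lyz2 in the 6 libraries, siTet1, control siRNA and untransfected from left to right. In pre2-2 the sum lies at 82.1, 378 and 206 CPM, while Irf7 and Isg15 are at 2.32 and 2.71 CPM in its untransfected library.

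Other genes of both families were counted from a list that also held Gvin1, Mx1 and Mx2, which are GTPases outside both. Of 27 listed, 21 were in the files and 6 passed the filter; none was called against control siRNA. Gvin1, a very large interferon-inducible GTPase, was called higher than untransfected both with siTet1 (1.48, SE 0.38, adjusted p 0.0159) and with control siRNA (2.27, SE 0.35, adjusted p 0.000258). Gbp6 was at 2.65 and 3.73 CPM with siTet1 in pre3 and pre2-2, against 2.12 and 21.7 with control siRNA and 0.511 and 11.6 untransfected (-1.80 against control siRNA, SE 0.58, adjusted p 0.144). It was the lowest of the 6 in this comparison. Gvin1 was at -0.78 against control siRNA, Gbp4 at -0.15, F830016B08Rik at -0.12, Irgq at -0.02 and 9930111J21Rik1 at 0.59. The median over the 6 was -0.13. Of 18 autophagy and vacuole partners none was called with siTet1 against control siRNA and 2 were called higher than untransfected. These were Lgals9, a galectin that binds exposed glycans on broken vacuoles (1.82, SE 0.24), and Sqstm1, an autophagy receptor (0.38, SE 0.12). Control siRNA against untransfected also called Lgals9 higher (2.17, SE 0.23), while Sqstm1 was not called (0.28, SE 0.12). None of 6 prenylation genes was called in any of the 3 treatment comparisons.

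The 8 values moved together over the 6 libraries: each correlated with the mean of the other 7 at a Pearson r of 0.946 (Iigp1) to 0.994 (the Tgtp sum). Among the other 11040 values tested, Mks1 (0.994) and Egfr (0.993) were most like their mean profile, followed by Dnaja1, Irak3, Nsf, Cand1, Gprasp2, Nckap1, Eif4e2 and 2310022A10Rik at 0.981 to 0.989. Of the interferon pathway genes, Stat2 stood at rank 1114 with 0.779 and Irf9 at rank 1165 with 0.772. Irf7 was at rank 2228 with 0.631, Isg15 at 2401 with 0.608 and Irf1 at 2870 with 0.530. These are descriptions over 6 libraries of 2 lines that differ most by line.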

How the data were processed

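Messenger RNA was sequenced in 6 libraries. The deposited files give expected counts and fractions of transcripts, from which TPM follow; per the submitters' processing notes the authors used RSEM 1.1.21 and mm9. Read length, aligner settings and read filters are not given in the sources used here. A series-wide TPM table was not used, and 1 listed gene is not reported here. The members, lists and tests were chosen with earlier results of these data known. After rounding, expected counts entered edgeR 4.0.16 under R 4.3.3, with TMM factors and the filterByExpr filter by treatment (minimum count 10), which left 11048 genes. The quasi-likelihood test was two-sided, with line and treatment in the model over all 6 libraries (common dispersion 0.00755, residual degrees of freedom 2). The spread of each gene was drawn towards that of all genes tested (prior degrees of freedom 23.2), which thus carry most of its weight. The tests of line by treatment left 1 residual degree of freedom. P-values were adjusted by Benjamini-Hochberg across those genes, and a call is an adjusted p under 0.05. A standard error is the size of the log2 fold change divided by the root of its F value. Between 18.7 and 21.4% of expected counts per library were not whole (tolerance 0.005). Floors and exact intervals cover counting error only. The cell line pairs the libraries, since same-numbered libraries come from the same line; their deviations from the group means correlated at 0.667 to 0.772. Genes named are the members, listed genes called in a treatment comparison, interferon pathway genes and the 10 most alike. Tet1, Gbp6 and the other uncalled GTPases outside the members, Lyz2 and other cell type markers were added after their values were seen. For siTet1 against control siRNA, simulated counts with 200 changed genes gave back 52% of those changed 2-fold and 98% of those changed 4-fold. The changed genes were drawn from those with higher counts, with equal means in both lines and a dispersion of 0.03. These shares therefore do not carry over to members with few counts in pre3. Alternatives were RLE factors, library totals, no filter, DESeq2 1.42.0, limma 3.58.1, no line term, only the 4 libraries compared, each library left out, Tgtp1 and Tgtp2 apart and a minimum change. An exact permutation of 2 libraries against 2 could reach no p below 0.333.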

Additional observations from a re-analysis of the deposited data

Results flagged for a closer look

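In 5 cases the 2 lines moved in opposite directions under the same contrast, measured as the difference of log2(CPM + 1) between treatments within a line. With siTet1 against untransfected, Irgm1 differed by 0.79 in pre3 and by -0.75 in pre2-2, so pre3 exceeded pre2-2 by 1.53. Igtp in this contrast differed by 1.64 in pre3 and -1.55 in pre2-2, a gap of 3.19, and Irgm2 by 0.78 and -1.35, a gap of 2.13. The Tgtp sum differed by 0.61 in pre3 and -1.94 in pre2-2, a gap of 2.55. Gbp2 with control siRNA against untransfected differed by 0.72 in pre3 and -0.16 in pre2-2, a gap of 0.88.

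The pre3 side rested on few counts: 12.7 with siTet1 and 7.05 untransfected for Irgm1, 4 and 0 for Igtp, 3.05 and 1.21 for Irgm2, 1 and 0 for the Tgtp sum, and 6 with control siRNA and 3 untransfected for Gbp2. The exact 95% counting interval of each of these pre3 ratios includes no change, among them 0.444 to 12.8 for Gbp2, and that of Gbp2 in pre2-2 does too (0.605 to 1.31). The gap of each single contrast was not tested; the 2 tests of line by treatment given above, which average over treatments, called none of the 8 values.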

How the results depend on the processing

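With no replicate block for line, no value was called in any treatment comparison (0 lower for siTet1 against control siRNA, 0 against untransfected, 0 higher for control siRNA against untransfected), and 0 had an unadjusted p under 0.05. DESeq2 called 1 value lower against control siRNA, 0 against untransfected and 1 higher for control siRNA against untransfected, with 6, 2 and 1 at an unadjusted p under 0.05; limma called 6, 2 and 1. The cause of these differences was not tested. With the line as replicate block in the 4 libraries compared, 5 and 2 were called lower, in both cases of only 5 tested, since Iigp1, Gbp1 and Gbp3 no longer passed the filter. With each library left out in turn, 0 to 7 were called lower against control siRNA, 0 to 6 against untransfected, and 0 to 2 higher for control siRNA against untransfected, while 8 stayed lower in pre3 than in pre2-2. Leaving out a library turned the sign in places: against control siRNA, Irgm2 ranged from -2.51 to 0.16 and Igtp from -2.42 to 0.0124. Against untransfected, Irgm1 ranged from -0.72 to 0.53, Irgm2 from -1.47 to 1.18, Igtp from -1.55 to 4.52, the Tgtp sum from -2.04 to 2.84 and Gbp1 from -1.92 to 0.13. Control siRNA against untransfected put Gbp2 at -0.18 to 1.08 and Gbp1 at -0.64 to 0.71. DESeq2 also gave Igtp 0.11 against untransfected and Gbp2 0.17 for control siRNA against untransfected. Igtp passed against control siRNA with no filter (adjusted p 0.00718) and with the 4 libraries (0.0019). Depth limits pre3, where 3, 6 and 1 values stood above 3 counts with siTet1, control siRNA and untransfected.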
